A study of Mus musculus with 4 samples.

Results

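The 40 cell cycle genes described here were taken by symbol from a list of genes that drive DNA replication and cell division, and all 40 were found among the 23278 genes of the deposited table. They comprise 24 genes of mitosis, 14 genes of G1/S and S phase, and the 2 D-type cyclins Ccnd1 and Ccnd2. RNA of whole mouse retinas of postnatal day 10 was sequenced, with 1 library for each of 4 genotypes on a mixed strain that includes C57BL6 and 129. At postnatal day 3 each mouse, WT included, was given 20 µg of the tamoxifen metabolite 4HT by intraperitoneal injection. A library pooled 3 RNA batches, and 2 to 4 mice gave the 4 to 8 retinas of a batch. The first library was labelled WT, and NdpKO lacked Ndp, which encodes Norrin, a secreted ligand of Frizzled4. The library called stabilized retina (Ctnnb1flex3/+;Pdgfb-CreER) carried 1 Ctnnb1flex3 allele, from which Cre makes a form of beta-catenin that resists degradation, and a tamoxifen-activated Cre driven by Pdgfb regulatory sequence, which is active in endothelial cells. Stabilized NdpKO (NdpKO;Ctnnb1flex3/+;Pdgfb-CreER) combined these alleles and was titled by the submitters as a rescue of the knockout.

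Since pooling left 1 library per genotype, no comparison below has a replicate check, none was tested and no p-value is given. Values are FPKM, fragment counts scaled for transcript length and for sequencing depth, a scale per length on which genes can be compared. The interval in brackets is the one deposited with each value, of a level not given in the sources used here, and it covers the estimate in that library alone, without the spread between mice. Depth was estimated from low genes by the commonest squared ratio of value to SD, with the upper interval bound read as 2 SD. Taken as the worth of 1 fragment, it placed NdpKO, stabilized retina and stabilized NdpKO at about 0.536, 0.426 and 0.577 of the depth of WT. The estimate thus uses the deposited intervals, yet at equal FPKM their median width was 0.997, 1.00 and 1.01 of that in WT. The widths do not carry the difference in depth, so intervals that are apart do not allow for it. Ndp was at 2.98 FPKM in WT and 2.35 FPKM in stabilized retina, and at 0.873 and 0.869 FPKM in NdpKO and stabilized NdpKO, in the order of the labels. Both NdpKO pools expressed Ddx3y (18.7 and 20.1 FPKM), a gene of the Y chromosome, and had Xist, the RNA of the inactive X chromosome, at 1.25 and 1.28 FPKM. The other pools had Ddx3y under 0.2 FPKM and Xist at 135 and 130 FPKM, so Ndp genotype and sex cannot be told apart. The labels of WT and NdpKO name neither Pdgfb-CreER nor the Ctnnb1flex3 allele. Stabilization and the presence of Cre therefore cannot be told apart either, in any comparison of stabilized with other libraries.

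Cells that enter the cycle first make D-type cyclins, which start the inactivation of the retinoblastoma protein and release E2F transcription factors. E2F switches on the replication genes, among them the MCM helicase subunits, cyclin E and the enzymes that make deoxynucleotides. Later, in G2, the MuvB complex with B-MYB and FOXM1 controls the mitotic genes through a promoter element called the CHR, often beside CCAAT boxes bound by NF-Y. In the mouse retina at this age neurogenesis is nearly over and most neurons have left the cycle, while the vasculature still grows. Whole-retina RNA mixes all cell types, and fewer cells of a type cannot be told apart from less RNA per cell.

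The promoters of the 2 classes were compared because their regulatory elements are the textbook difference between them. RefSeq windows on GRCm38.p6, from 250 bases before to 50 bases after the annotated start, were found for 30 of the 40 members. Aurkb, Ccna2, Ccnd1, Ccnd2, Ccne2, Foxm1, Gmnn, Kif20a, Mcm4 and Tpx2 had no entry. Both strands were searched for E2F motifs (TTTCGCGC, TTTCGCGG, TTTGGCGC or TTTGGCGG), CHR motifs (TTTGAA or TTCGAA) and CCAAT boxes (CCAAT), and overlapping matches were counted separately. The upstream 250 bases of 4 members are shown, with every match in capitals. Ube2c and Mcm6 were taken by a rule on motifs and mean FPKM, and Top2a and Mki67 were added after their values were seen, since the comparisons below turn on them. Aurka and Mcm7 also met that rule, but the CHR match of Aurka and the E2F match of Mcm7 reach past the start and they are not shown. Ube2c (chr2:164769679-164769928, plus strand) encodes the ubiquitin-conjugating enzyme of the anaphase-promoting complex. Mcm6 (chr1:128359706-128359955, minus strand) encodes a helicase subunit, Top2a (chr11:99024190-99024439, minus strand) the topoisomerase that untangles chromosomes, and Mki67 (chr7:135716380-135716629, minus strand) the proliferation antigen Ki-67.
Ube2c: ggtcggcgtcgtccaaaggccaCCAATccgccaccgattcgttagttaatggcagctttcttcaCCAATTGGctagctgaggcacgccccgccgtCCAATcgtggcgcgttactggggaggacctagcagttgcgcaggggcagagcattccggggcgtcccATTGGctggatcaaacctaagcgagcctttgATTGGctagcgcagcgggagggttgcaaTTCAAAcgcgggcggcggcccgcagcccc
Mcm6: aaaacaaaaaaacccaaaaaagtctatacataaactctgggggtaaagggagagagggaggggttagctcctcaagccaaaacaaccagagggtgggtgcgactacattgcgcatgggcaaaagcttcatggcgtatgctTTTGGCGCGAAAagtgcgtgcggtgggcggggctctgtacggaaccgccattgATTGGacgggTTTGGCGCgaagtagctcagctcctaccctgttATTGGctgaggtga
Top2a: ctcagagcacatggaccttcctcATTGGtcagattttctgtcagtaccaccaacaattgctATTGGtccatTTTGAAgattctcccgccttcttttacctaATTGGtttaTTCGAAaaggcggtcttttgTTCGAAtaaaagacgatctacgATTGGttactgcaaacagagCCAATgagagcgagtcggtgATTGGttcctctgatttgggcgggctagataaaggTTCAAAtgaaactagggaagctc
Mki67: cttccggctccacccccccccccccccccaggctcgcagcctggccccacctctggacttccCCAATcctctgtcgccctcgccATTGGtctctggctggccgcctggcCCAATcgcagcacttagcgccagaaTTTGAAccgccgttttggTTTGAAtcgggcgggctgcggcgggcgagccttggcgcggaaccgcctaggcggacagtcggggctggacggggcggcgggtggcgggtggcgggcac

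The Mcm6 window held 3 E2F motifs, of which a pair overlap in the run TTTGGCGCGAAA on opposite strands, and no CHR motif. Top2a had 4 CHR motifs and 6 CCAAT boxes, Mki67 had 2 and 3, and Ube2c had 1 and 6, with CCAATTGG in Ube2c counting as a box on each strand. Of the 19 mitotic members with a window, 15 (78.9%) held a CHR motif and 1 (5.26%), Cdk1, an E2F motif. Of the 11 G1/S and S-phase members, 2 (18.2%) held a CHR motif and 5 (45.5%) an E2F motif. Over the 27025 genes with a window the shares were 21.7% for CHR and 1.81% for E2F. A CHR motif together with at least 2 CCAAT boxes was present in 10 mitotic members (52.6%), in 1 G1/S or S-phase member (9.09%) and in 2.68% of all genes. Cdt1 and Mcm5 had 2 E2F motifs each and Mcm3 had 1. No E2F match lay in the windows of Ccne1, E2f1, Mcm2, Pcna, Rrm2 and Tyms. Of these Ccne1, E2f1 and Tyms held none of the 3 motifs. The E2f1 window (154569377 to 154569676) lies inside the GENCODE gene, which starts at 154569892 on the minus strand. Sequence before that start was not searched. The Cdca8 window likewise lies inside its GENCODE gene. A match describes the sequence and does not show that a factor binds there.

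**Figure D1:**
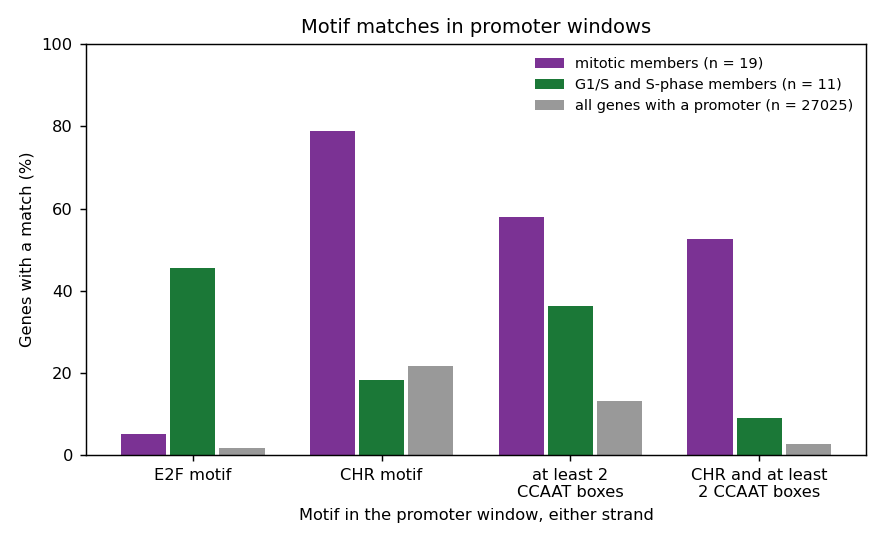
Share of genes (percent) with a motif match on either strand of the promoter window, for mitotic members, G1/S and S-phase members and all genes with a window. Bars are shares of genes and carry no error. CHR motifs reach 78.9% in mitotic members and E2F motifs 45.5% in G1/S and S-phase members, beside 21.7% and 1.81% of all genes.

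The mitotic members were mostly low. Mean FPKM over the 4 libraries ranged from 0.271 (Cenpf) to 7.73 (Ccna2) in the mitotic class, where 14 of 24 genes lay under 1 FPKM. In the G1/S and S-phase class it ranged from 0.856 (Rrm2) to 50.9 (Pcna), with Rrm2 alone under 1 FPKM. Ccnd1 averaged 17.2 FPKM and Ccnd2 1.31 FPKM. Ratios were taken on FPKM plus 0.5, and genes entered the counts with a mean of at least 1 FPKM and an OK status in every library. This kept 25 members (10 mitotic, 13 of G1/S and S phase and both D-type cyclins) among 13150 genes. The other 15 members lie between 0.25 and 1 FPKM and are read beside the 2108 genes of that range. Top2a, at a mean of 0.996 FPKM, lay just under the minimum.

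Stabilization of beta-catenin with Ndp intact was examined by setting stabilized retina against WT, which also differ in Cre. Mcm6 was the 1 of 25 tested members, and Mki67 and Top2a were the 2 of 15 members under the minimum, with an interval apart from and above that of WT, beside 1.76% of all genes tested and 3.18% of genes of 0.25 to 1 FPKM. Mki67 and Top2a, at 0.45 and 0.57, did not reach 1.5-fold on the log2(FPKM + 0.5) scale. Ccna2, Pcna and Ccne2 had lower values with overlapping intervals. At 1.5-fold 1 of 25 members, Mcm6, was higher and none was lower, beside 1.67% and 1.71% of all genes tested. The medians were 0.15 for mitotic members and 0.15 for G1/S and S-phase members on the log2 scale, and -0.02 for all genes tested. Of the 15 members under the minimum none was 1.5-fold apart in either direction, beside 3.18% higher and 2.37% lower among genes of that range.

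In the absence of Ndp, stabilized NdpKO was set against NdpKO. Here 8 members were at least 1.5-fold higher on the log2(FPKM + 0.5) scale. They were Mki67, Top2a, Ccnb1, Cdk1 and Aurkb of the mitotic class and Rrm2, Mcm6 and Cdt1 of the S-phase class. Mcm6 and Cdt1 are the 2 of 25 members above the minimum (8.00%), beside 1.76% of all genes tested. The other 6 are of 15 members under it, beside 5.79% of genes of that range. The same 8 members were those with an interval apart from and above that of NdpKO, beside 1.26% of all genes tested and 4.74% of genes of 0.25 to 1 FPKM. Bub1b, a kinase of the spindle checkpoint, was the 1 tested member 1.5-fold lower, beside 0.920% of all genes, with an interval apart and below, beside 0.487%. None of the low members was lower, beside 1.80%. The medians were 0.13 for tested mitotic members, 0.37 for the 14 mitotic members under the minimum, 0.22 for G1/S and S-phase members and 0.03 for all genes tested. Recentring on the median of all genes left 1 tested member 1.5-fold higher, and a pseudocount of 1 left none. By the deposited values Kif23 (2.00 times), Mcm3 (1.72), Bub1 (1.68), Foxm1 (1.58) and Birc5 (1.51) were also past 1.5-fold, with overlapping intervals.

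**Figure D2:**
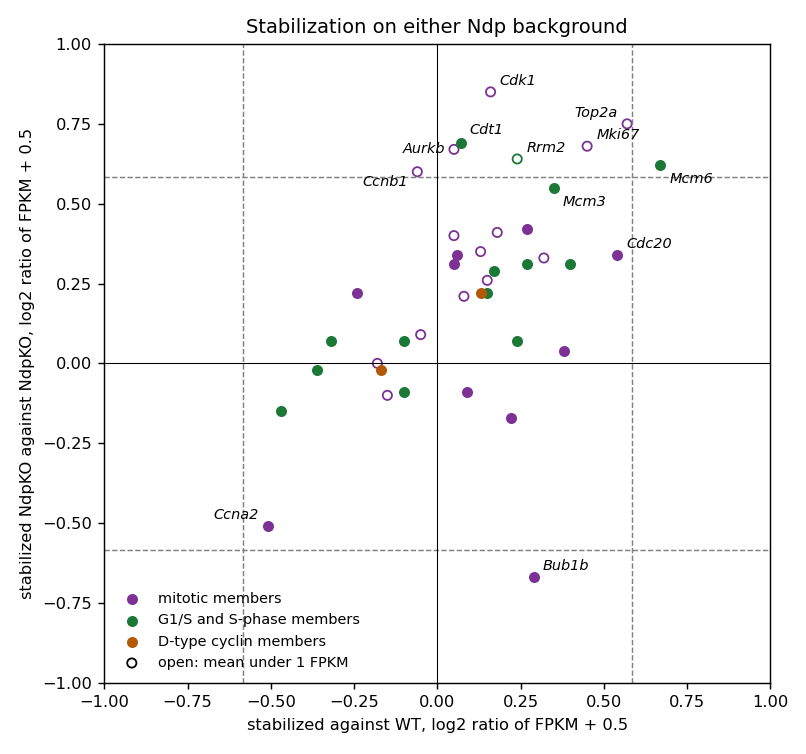
Log2 ratio of FPKM + 0.5 for stabilized against WT (x axis) and for stabilized NdpKO against NdpKO (y axis), with 1 point per member, open where the mean was under 1 FPKM, and dashed lines at 1.5-fold. Mcm6 is beyond 1.5-fold on both axes, Cdk1, Top2a, Cdt1, Mki67, Aurkb, Rrm2 and Ccnb1 on the y axis only, and Bub1b is at 0.29 and -0.67.

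These 2 comparisons share no library, so each member was also placed by whether both libraries with stabilized beta-catenin lay above or below both others, a count added after the values were seen. Of the 40 members 23 lay above, 5 below (Ccna2, Cenpe, Pcna, Tyms and Ccne2) and 12 overlapped. Among the 25 tested members 13 lay above (52.0%) and 4 below (16.0%), beside 29.2% and 23.9% of all genes tested. Among the 15 low members 10 lay above (66.7%) and 1 below (6.67%), beside 29.2% and 17.6% of genes of that range. Of the 25 tested members 1, Mcm6, was 1.5-fold higher on both backgrounds, beside 0.730% of all genes tested, and no low member was.

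Markers of blood vessels and of red blood cells were higher in the same pair of libraries. Summed FPKM of the 17 endothelial markers was 72.3 in WT, 64.7 in NdpKO, 112 in stabilized retina and 111 in stabilized NdpKO, and 16 of the 17 markers lay above in both stabilized libraries (Emcn lay below). For 9 mural cell markers, of pericytes and smooth muscle, the sums were 21.6, 13.8, 35.0 and 32.9 FPKM in the same order, with 8 of 9 above. For 7 erythroid markers they were 69.8, 75.6, 164 and 176 FPKM, with 7 of 7 above. No endothelial or mural marker was listed at 0 in any library. The part of these cells in the values of the cell cycle genes was not tested.

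The MCM proteins form the ring-shaped helicase that is loaded at origins in G1 and unwinds DNA in S phase. Each of its 6 subunits lay higher in both stabilized libraries than in the others, beside 29.2% of all genes tested. The intervals, however, were apart for Mcm6 alone. Mcm6 (chromosome 1, 128331590 to 128359664, minus strand, GENCODE M21 on mm10) was at 2.75 FPKM in WT (2.09 to 3.41), 2.76 FPKM in NdpKO (2.10 to 3.43), 4.67 FPKM in stabilized retina (3.72 to 5.63) and 4.50 FPKM in stabilized NdpKO (3.56 to 5.43). The 2 values without stabilization nearly coincide and both stabilized values lie above them, with log2 ratios of 0.67 on the WT background and 0.62 on the NdpKO background. Mcm3 (chromosome 1, 20802968 to 20820312), the least abundant subunit here, was at 1.03 FPKM in WT (0.719 to 1.33), 0.907 FPKM in NdpKO (0.626 to 1.19), 1.44 FPKM in stabilized retina (1.04 to 1.85) and 1.56 FPKM in stabilized NdpKO (1.13 to 1.99). Its ratios of 0.35 and 0.55 fell short of 1.5-fold on the log2(FPKM + 0.5) scale and its intervals overlapped. By the deposited values it was 1.41 times as high on the WT background and 1.72 times on the NdpKO background.

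Mcm2 was at 2.22, 2.25, 3.09 and 2.92 FPKM in WT, NdpKO, stabilized retina and stabilized NdpKO, an order kept for all lists of 4 values from here on. Mcm5 was at 2.22, 2.06, 2.57 and 2.62 FPKM, and Mcm4 at 3.08, 3.54, 3.71 and 3.75 FPKM. In all of these the stabilized libraries were highest, by margins smaller than the intervals. Mcm7, the most abundant subunit at 12.9, 11.9, 14.4 and 13.9 FPKM, shares its deposited locus with the microRNA genes Mir106b, Mir25 and Mir93.

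Cdt1 loads the MCM ring onto origins and geminin (Gmnn) holds Cdt1 back. Cdt1 (chromosome 8, 122568015 to 122573554) was at 1.63 FPKM in WT (1.15 to 2.12), 1.25 FPKM in NdpKO (0.848 to 1.65), 1.74 FPKM in stabilized retina (1.22 to 2.26) and 2.32 FPKM in stabilized NdpKO (1.67 to 2.97). Only NdpKO and stabilized NdpKO were apart, with a log2 ratio of 0.69, while stabilization with Ndp intact gave 0.07. Gmnn was flat at 3.30, 2.97, 3.05 and 3.13 FPKM, with overlapping intervals throughout.

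Among the enzymes that supply deoxynucleotides, Rrm2, the regulated subunit of ribonucleotide reductase (chromosome 12, 24708241 to 24714146), was at 0.729 FPKM in WT (0.464 to 0.994), 0.573 FPKM in NdpKO (0.354 to 0.792), 0.949 FPKM in stabilized retina (0.628 to 1.27) and 1.17 FPKM in stabilized NdpKO (0.794 to 1.55). Its ratio was 0.64 on the NdpKO background, where the intervals were just apart, and 0.24 on the WT background. Tyms, thymidylate synthase, ran the other way by a small margin, at 5.28, 5.36, 4.88 and 5.01 FPKM. Pcna (chromosome 2, 132249162 to 132253314), the sliding clamp of DNA polymerases, which also serves DNA repair, was the most abundant member at 57.2 FPKM in WT (49.5 to 65.0), 51.3 FPKM in NdpKO (44.3 to 58.3), 44.5 FPKM in stabilized retina (38.3 to 50.7) and 50.7 FPKM in stabilized NdpKO (43.7 to 57.6). Both stabilized values were below both others, with all intervals overlapping and ratios of -0.36 and -0.02. Pcna thus differed from the MCM genes in level, and in direction only by values whose intervals overlapped.

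Of the regulators of S-phase entry, E2f1 was at 3.30, 2.63, 2.55 and 2.79 FPKM, highest in WT. Ccne1, a cyclin E gene, was at 1.41, 1.59, 1.80 and 2.10 FPKM and Ccne2, its paralogue, at 1.82, 1.55, 1.18 and 1.34 FPKM. The paralogues ordered the genotypes differently, and all their intervals overlapped. Ccne2 shares its deposited locus with Ints8, so its value is uncertain.

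**Figure D3:**
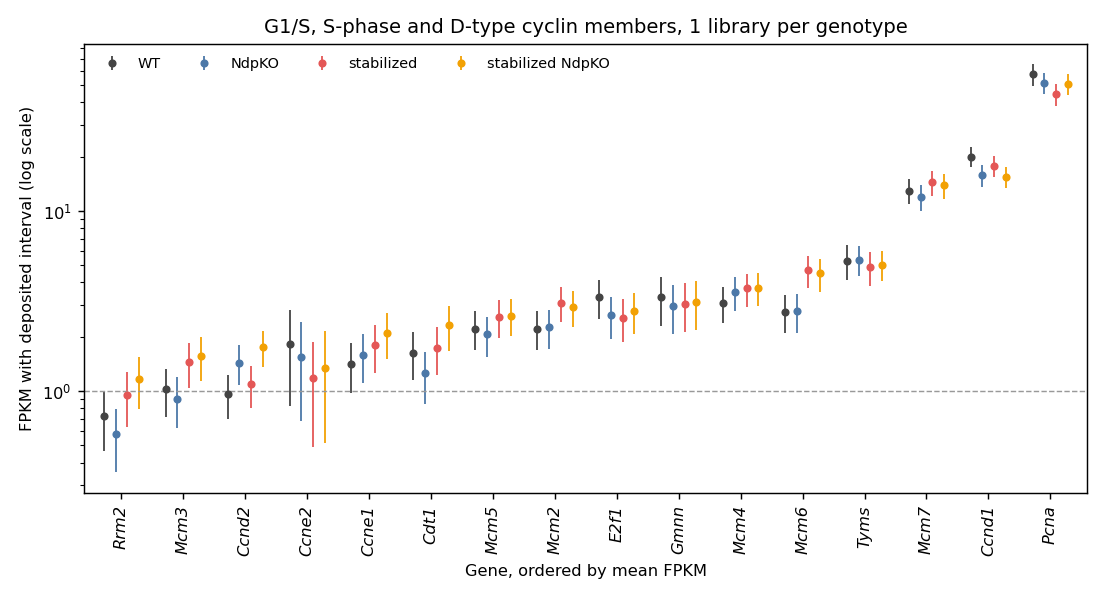
FPKM (log scale) of G1/S, S-phase and D-type cyclin members in each of the 4 libraries, points with the deposited interval, genes ordered by mean and a dashed line at 1 FPKM. Mcm6 separates at 4.67 and 4.50 FPKM with stabilization from 2.75 and 2.76 FPKM without, while Pcna lies near 50.9 FPKM on average in overlapping intervals.

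The D-type cyclins differed in level and in pattern. Ccnd1 (chromosome 7, 144929931 to 144939925), a known target of Wnt signalling that is also abundant in Muller glia, was at 20.0 FPKM in WT (17.4 to 22.7), 15.7 FPKM in NdpKO (13.5 to 17.9), 17.8 FPKM in stabilized retina (15.4 to 20.2) and 15.4 FPKM in stabilized NdpKO (13.3 to 17.6). Its order followed Ndp genotype, and equally sex, with both NdpKO libraries lowest, at log2 ratios of -0.34 and -0.20, short of 1.5-fold. Ccnd2 (chromosome 6, 127125162 to 127152193) was at 0.956 FPKM in WT (0.696 to 1.22), 1.43 FPKM in NdpKO (1.08 to 1.79), 1.09 FPKM in stabilized retina (0.807 to 1.38) and 1.76 FPKM in stabilized NdpKO (1.35 to 2.16). Here both NdpKO libraries were the higher ones, at ratios of 0.41 without and 0.50 with stabilization, and the intervals overlapped. Ccnd1 shares its deposited locus with the microRNA gene Mir3962 and Ccnd2 with 9330179D12Rik.

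In the mitotic class, Mki67 (chromosome 7, 135689784 to 135716361) was at 0.384 FPKM in WT (0.278 to 0.489), 0.338 FPKM in NdpKO (0.244 to 0.433), 0.704 FPKM in stabilized retina (0.541 to 0.867) and 0.842 FPKM in stabilized NdpKO (0.656 to 1.03). Top2a (chromosome 11, 98992943 to 99024189) was at 0.658 FPKM in WT (0.467 to 0.849), 0.660 FPKM in NdpKO (0.470 to 0.850), 1.22 FPKM in stabilized retina (0.918 to 1.53) and 1.44 FPKM in stabilized NdpKO (1.10 to 1.79). For both genes each stabilized library had an interval apart from that of its control. By the deposited values Mki67 was 1.83 times as high on the WT background and 2.49 times on the NdpKO background, and Top2a 1.86 and 2.19 times. The pseudocount shrinks these to log2 ratios of 0.45 and 0.68 for Mki67 and 0.57 and 0.75 for Top2a, so the WT background fell short of 1.5-fold on that scale.

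Cdk1 is the kinase that drives entry into mitosis, and cyclins A2, B1 and B2 activate it. Cdk1 (chromosome 10, 69335146 to 69352938) was at 0.821 FPKM in WT (0.552 to 1.09), 0.460 FPKM in NdpKO (0.287 to 0.633), 0.975 FPKM in stabilized retina (0.669 to 1.28) and 1.24 FPKM in stabilized NdpKO (0.866 to 1.61). Ccnb1 (chromosome 13, 100778650 to 100786570) was at 0.722 FPKM in WT (0.465 to 0.980), 0.411 FPKM in NdpKO (0.244 to 0.578), 0.670 FPKM in stabilized retina (0.430 to 0.911) and 0.880 FPKM in stabilized NdpKO (0.583 to 1.18). For this pair NdpKO stood lowest, and it was apart from stabilized NdpKO but not from WT. The ratios of stabilization were 0.85 and 0.60 on the NdpKO background, and 0.16 and -0.06 on the WT background.

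Ccnb2 was at 0.805, 0.632, 1.13 and 0.922 FPKM, with overlapping intervals. Ccna2 (chromosome 3, 36564865 to 36572150) stood out in level and direction, at 9.17 FPKM in WT (7.26 to 11.1), 9.16 FPKM in NdpKO (7.31 to 11.0), 6.31 FPKM in stabilized retina (4.84 to 7.78) and 6.29 FPKM in stabilized NdpKO (4.80 to 7.77). Its 2 stabilized values were alike and lower, at ratios of -0.51 and -0.51, just under 1.5-fold and with overlapping intervals. Ccna2 overlaps Exosc9, an RNA exosome gene at 14.5, 12.3, 11.7 and 12.7 FPKM, and shares a deposited locus with it, so its level is uncertain.

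Bub1 and Bub1b are kinases of the checkpoint that delays anaphase until every chromosome is attached, and Cdc20 is the activator of the anaphase-promoting complex that they restrain. Bub1b (chromosome 2, 118598211 to 118641591) was at 1.52 FPKM in WT (1.12 to 1.92), 3.08 FPKM in NdpKO (2.43 to 3.74), 1.97 FPKM in stabilized retina (1.49 to 2.45) and 1.76 FPKM in stabilized NdpKO (1.32 to 2.20). NdpKO alone stood high, at a ratio of 0.83 over WT, and stabilized NdpKO lay below it at -0.67. Bub1 was low at 0.270, 0.206, 0.354 and 0.346 FPKM. Cdc20 was at 0.905 FPKM in WT (0.416 to 1.39), 1.01 FPKM in NdpKO (0.486 to 1.54), 1.54 FPKM in stabilized retina (0.870 to 2.20) and 1.42 FPKM in stabilized NdpKO (0.781 to 2.06). Its stabilized values were the higher ones, in wide overlapping intervals, and it shares its deposited locus with Elovl1. Ube2c was at 4.77, 5.27, 5.63 and 4.62 FPKM, in no order of genotype.

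Aurora B (Aurkb), borealin (Cdca8) and survivin (Birc5) form the chromosomal passenger complex, which corrects faulty attachments and guides division of the cell. Aurkb (chromosome 11, 69045647 to 69051664) was at 0.348 FPKM in WT (0.196 to 0.501), 0.251 FPKM in NdpKO (0.131 to 0.370), 0.378 FPKM in stabilized retina (0.215 to 0.540) and 0.698 FPKM in stabilized NdpKO (0.441 to 0.954). Stabilized NdpKO alone was high, apart from NdpKO at a ratio of 0.67 and overlapping stabilized retina. Birc5 was at 1.28, 1.01, 1.66 and 1.52 FPKM and Cdca8 at 1.08, 1.16, 1.56 and 1.20 FPKM. Both had their higher values with stabilization, within overlapping intervals.

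Of the spindle pole genes, Aurka, the kinase aurora A, was at 3.13, 2.89, 2.57 and 3.43 FPKM, and Tpx2, its activator, at 0.936, 0.759, 1.07 and 1.11 FPKM. Plk1, a kinase of spindle assembly, was at 1.48, 1.55, 1.55 and 2.04 FPKM, highest in stabilized NdpKO. The motor proteins Kif11 (1.16, 1.06, 1.23 and 1.48 FPKM) and Kif23 (0.364, 0.242, 0.479 and 0.484 FPKM) had their higher values with stabilization. No interval in this group was apart within a comparison.

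The remaining mitotic members showed no common order. Prc1, a bundler of the midzone, was at 2.42, 2.96, 2.61 and 2.74 FPKM and Nusap1, a spindle protein, at 1.08, 0.922, 0.893 and 0.923 FPKM. The kinetochore genes Cenpe (0.682, 0.690, 0.566 and 0.611 FPKM) and Cenpf (0.282, 0.249, 0.255 and 0.299 FPKM) were low and flat. Foxm1, a transcription factor of mitotic genes, was at 0.730, 0.595, 0.777 and 0.941 FPKM. Kif20a was at 0.754, 0.840, 0.828 and 1.05 FPKM with intervals that reach 0 in WT and stabilized retina. Kif20a, Nusap1 and Foxm1 share their deposited loci with other genes.

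**Figure D4:**
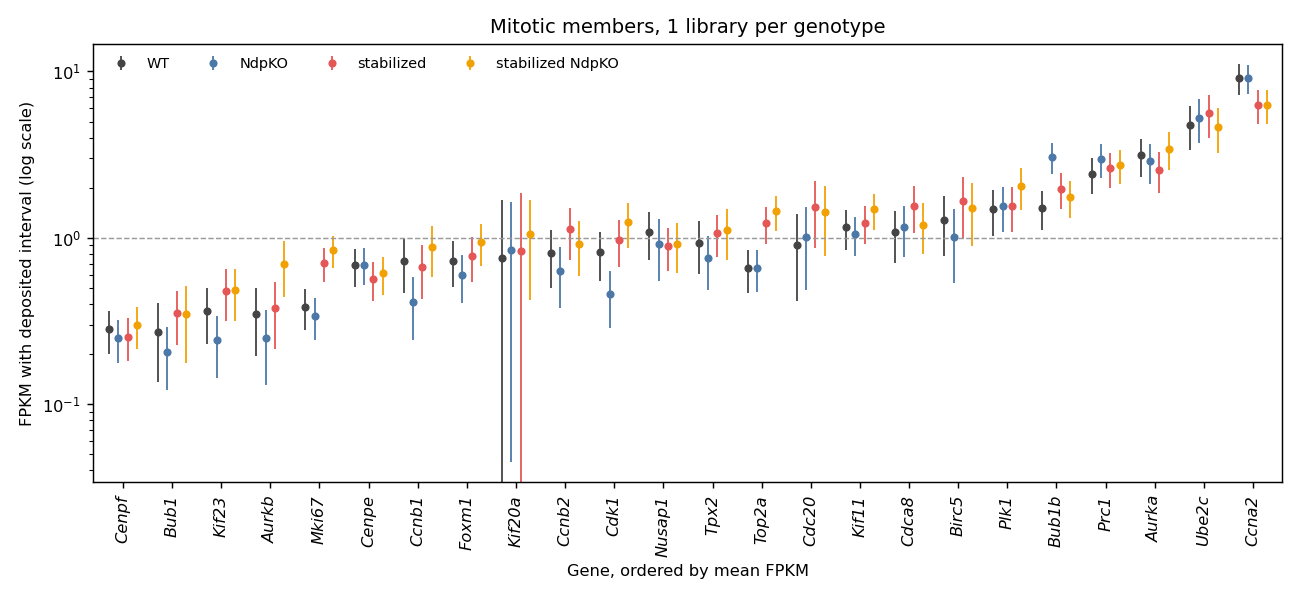
FPKM (log scale) of the 24 mitotic members in each of the 4 libraries, points with the deposited interval, genes ordered by mean and a dashed line at 1 FPKM. Mki67 and Top2a have both stabilized libraries apart from their controls, Ccna2 has both below the others at 6.31 and 6.29 FPKM, and Bub1b is highest in NdpKO at 3.08 FPKM. Interval bounds of 0 (Kif20a) run off the axis.

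Loss of Ndp with unmodified beta-catenin was examined by setting NdpKO against WT, pools that also differ in sex. This comparison shares the WT library with the first above and the NdpKO library with the second. At 1.5-fold 1 of 25 tested members, Bub1b, was higher and none was lower, beside 0.966% and 1.22% of all genes tested. The interval of Bub1b was also apart from and above that of WT, beside 0.433% of all genes tested. No low member was 1.5-fold apart, beside 0.806% and 1.90% of genes of that range. The medians were 0.06 for tested mitotic members, -0.16 for the 14 mitotic members under the minimum, -0.12 for G1/S and S-phase members and -0.02 for all genes tested. Values of 3 of the 15 low members were above those of WT, beside 1007 of the 2108 genes of that range. The lowest ratio among low members was -0.46 for Cdk1. NdpKO held the lowest value of several low members that were 1.5-fold higher in stabilized NdpKO.

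Loss of Ndp with stabilized beta-catenin was examined by setting stabilized NdpKO against stabilized retina, pools that also differ in sex. No tested member was 1.5-fold apart, beside 0.981% higher and 0.692% lower among all genes tested. Among low members the count was also 0 in each direction, beside 1.61% and 1.61%. The medians were -0.05 for tested mitotic members, 0.03 for G1/S and S-phase members and 0.04 for all genes tested. The 14 mitotic members under the minimum had a median of 0.12, beside 0.02 for genes of 0.25 to 1 FPKM. Of the 15 low members 13 had a ratio above 0, beside 1117 of the 2108 genes of that range. The highest ratios were 0.50 for Ccnd2 and 0.45 for Aurkb.

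**Figure D5:**
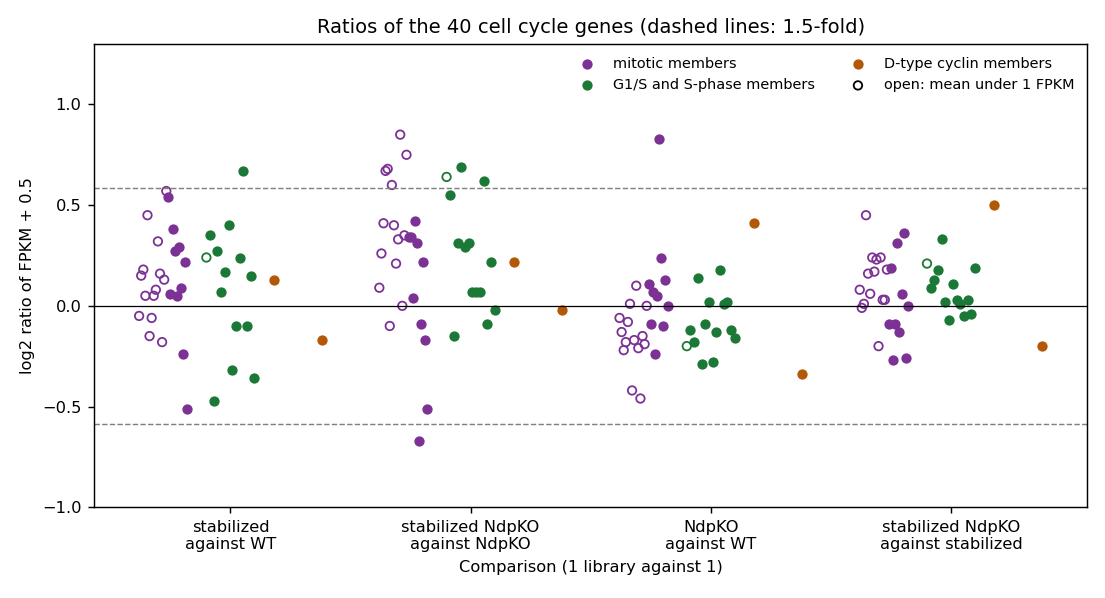
Log2 ratio of FPKM + 0.5 of each of the 40 members in the 4 comparisons, by class, with open points for means under 1 FPKM and dashed lines at 1.5-fold. The points beyond 1.5-fold are Mcm6 in stabilized against WT, 8 higher members and Bub1b lower in stabilized NdpKO against NdpKO, and Bub1b in NdpKO against WT.

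Other genes of the cycle, from lists of related genes, were read beside the members. Of 57 further mitotic genes 27 were tested. None was 1.5-fold higher in stabilized retina than in WT, and 1, Spc25, was lower, beside 1.67% and 1.71% of all genes tested. In stabilized NdpKO against NdpKO 1, Ncaph, a condensin subunit, was higher (0.76) and 1, again Spc25, lower, beside 1.76% and 0.920%. Ncaph was at 0.995 FPKM in WT, 0.725 FPKM in NdpKO, 1.33 FPKM in stabilized retina and 1.57 FPKM in stabilized NdpKO. It reached the minimum mean of 1 FPKM only through the stabilized libraries, so its entry among tested genes is not independent of its ratio. Spc25, a subunit of the kinetochore complex that holds microtubules, was at 21.1 FPKM in WT, 23.0 FPKM in NdpKO, 11.0 FPKM in stabilized retina and 12.1 FPKM in stabilized NdpKO. Both stabilized values lay apart from their controls, at ratios of -0.91 and -0.89, the opposite side to Mki67 and Top2a. In stabilized NdpKO against stabilized retina, securin (Pttg1) was higher at 0.68, with values of 9.94, 9.46, 7.64 and 12.5 FPKM and overlapping intervals.

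Of 53 further S-phase genes 36 were tested. None was 1.5-fold apart in either comparison of stabilization, beside 0.920% to 1.76% of all genes tested per direction. Cdc45, a partner of the MCM helicase, was higher in stabilized NdpKO than in stabilized retina (0.59), at 1.19, 1.18, 0.850 and 1.53 FPKM with overlapping intervals. Both stabilized libraries lay above both others for 9 of 27 tested further mitotic genes and 10 of 36 tested further S-phase genes, shares near the 29.2% of all genes, and below them for 7 and 4. Among those with a mean of 0.25 to 1 FPKM, 11 of 22 further mitotic genes lay above and 0 below, and 7 of 12 further S-phase genes lay above and 1 below, beside 29.2% above and 17.6% below for all genes of that range. The medians for the tested genes of these lists were 0.02 and -0.03 on the WT background and 0.06 and 0.12 on the NdpKO background.

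No tested gene of the list of cell cycle inhibitors was 1.5-fold apart in any of the 4 comparisons. Over all genes tested the shares per direction ran from 0.692% to 1.76%. Of 23 inhibitors, among them the kinase inhibitors of the Cdkn families and the retinoblastoma family, 19 were tested. Their ratios ranged from -0.44 to 0.34 for stabilization on the WT background and from -0.30 to 0.44 on the NdpKO background, with medians of -0.04 and 0.04. Of 19 further G1 kinases, cyclins and activators 17 were tested, and Cdk6, a partner of D-type cyclins, was lower in stabilized retina than in WT (-0.60), at 3.07, 2.44, 1.86 and 2.10 FPKM with overlapping intervals. Of 15 replication-dependent histone genes 2 were tested, and Hist2h2ac was higher in stabilized NdpKO than in NdpKO (0.79), at 9.07, 6.91, 11.4 and 12.3 FPKM with overlapping intervals. Of the 7 histone genes of 0.25 to 1 FPKM 1 lay above in both stabilized libraries and 4 below, the reverse of the further mitotic and S-phase genes of that range. Histone genes have near-identical copies, so these values are uncertain.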

How the data were processed

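Whole-retina RNA of 4 genotypes was measured with 1 pooled library each, made with a TruSeq kit per the labels' protocols. The authors deposited 1 table of FPKM with interval bounds and a status per gene. TopHat, Cuffdiff and mm10 are named in the submitters' processing notes, with versions, annotation, strandedness and read totals not given in the sources used here. Columns were assigned by the number shared by the column name and the sample description. Log2 ratios used a pseudocount of 0.5 FPKM, which understates changes of low genes, and a gene was tested if its mean reached 1 FPKM with status OK in every library. All 4 comparisons set 1 library against 1, and an additive fit of both factors was not run. Relative depth is approximate and rests on the deposited intervals. The worth of 1 fragment was taken as the commonest squared ratio of value to SD among low genes, with the upper bound read as 2 SD. No counts were recovered, since between 54.4% and 58.2% of low values were whole to within 0.02.

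The members and lists were chosen with earlier results of these data known. Values with intervals in every library are given for members 1.5-fold apart in any comparison, the D-type cyclins and the most and least abundant tested member of each class; from other cell cycle lists up to 4 genes per direction are named. Coordinates are from GENCODE M21 and promoters from RefSeq GRCm38.p6. The range of 0.25 to 1 FPKM, the count over the stabilized pair of libraries and the promoters of Top2a and Mki67 were chosen after seeing the values. As alternatives the pseudocount was set to 0.1 or 1, the minimum mean to 0.5, 5 or none, with recentring, rescaling to equal totals, all statuses, classes without their most abundant member and, added later, without members that share a deposited locus. The computation of ratios and calls was checked on simulated data without noise, which cannot show how often noise alone gives a call. Python 3.11.15, numpy 2.4.6, pandas 2.3.3 and matplotlib 3.10.9 were used.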

Additional observations from a re-analysis of the deposited data

Results flagged for a closer look

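Bub1b had ratios of opposite sign on the 2 Ndp backgrounds. Its log2 ratio was 0.29 for stabilized retina against WT, under 1.5-fold and with overlapping intervals, and -0.67 for stabilized NdpKO against NdpKO, a difference of -0.96. The NdpKO library alone was high, at 3.08 FPKM, and it enters the second ratio only. With 1 library on each side the difference was not tested, and 1 library decides it.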

How the results depend on the processing

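Under 10 alternatives 152 values were recomputed for 16 results. Of these values 131 stayed within the spread taken from the deposited intervals or within 1.5 times the reported count, and 21 moved. The 131 include all values of the setting with all statuses, which could not move because every member had status OK. Counts reported as 0 likewise could not change under a higher minimum. With a pseudocount of 0.1, members 1.5-fold higher and lower in stabilized retina against WT numbered 2 and 1, and 1 was higher in stabilized NdpKO against stabilized retina. With a pseudocount of 1, stabilized NdpKO against NdpKO had 0 higher and 0 lower. Recentring left 1 higher there. With a minimum of 0.5 FPKM, 7 of 36 members were higher in that comparison and the mitotic median was 0.32. Without a minimum, 8 of 40 were higher with a median of 0.32. The mitotic median of stabilized NdpKO against stabilized retina was then 0.06 under either setting, and that of NdpKO against WT was -0.08 without a minimum. A minimum of 5 FPKM kept 6 members. It left 0 higher members in stabilized retina and in NdpKO against WT, and 0 higher and 0 lower in stabilized NdpKO against NdpKO. The mitotic medians were then -0.14 on the WT background and -0.34 on the NdpKO background, on 2 members, and the G1/S and S-phase medians -0.10 and -0.02, on 3. Counts can fall by construction when fewer genes are tested, which does not hold for the sign of the medians. These medians rest on the most abundant members alone. No paired analysis was possible because each genotype has 1 library. Depth limits the members under 1 FPKM most. Stabilized retina, at about 0.426 of the depth of WT, has by that estimate the fewest fragments behind its values.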

Other observations

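Marker lists of 5 other retinal cell types did not share one direction. Summed FPKM of 12 microglia markers was 61.5 in WT, 54.2 in NdpKO, 53.6 in stabilized retina and 61.0 in stabilized NdpKO, and 4 of the 12 lay above in both stabilized libraries while Aif1 and Ctss lay below. For 7 astrocyte markers the sums were 18.9, 23.1, 24.8 and 31.1 FPKM in that order, with 3 above and Aqp4 below. For 14 markers of retinal progenitors, several of which mature neurons and glia also express, the sums were 405, 382, 441 and 429 FPKM, with 6 above and Neurog2 below. For 10 Muller glia markers they were 1118, 1175, 1042 and 1144 FPKM, with 3 above and 4 below, and for 8 rod markers 5381, 6043, 5263 and 5830 FPKM, with 1 above and Gnat1 and Cnga1 below. The part of any of these cells in the values of the cell cycle genes was not tested.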
